A study of Homo sapiens with 12 samples.

Results

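The transcripts of 10 genes that serve protein folding and degradation in the endoplasmic reticulum (ER) were followed: XBP1, ATF6, HERPUD1, EDEM1, MANF, CALR, CANX, PDIA4, SDF2L1 and HYOU1. They were taken by name from a list and matched by symbol; each of the 10 matched one of the 58735 rows of the gene count table. All 10 passed the filter on low counts that left 17290 genes for testing. The cells were U2OS, a human line derived from an osteosarcoma. One group of 3 libraries received only the solvent DMSO. A second group of 3 received TH10785 at 10 µM, a compound that the study's title places among small-molecule activators of OGG1, the glycosylase that removes oxidised guanine from DNA. Another group of 3 received PNKP1i at 10 µM, a compound the labels give only by this name, and the last group of 3 received both compounds at 10 µM each. All cells were treated for 24 h. The labels do not say that replicates were separate cultures, so the p-values measure the spread between these libraries, which may be technical.

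Proteins that enter the ER are folded by chaperones such as BiP, by the lectins calnexin and calreticulin, which hold glycoproteins, and by disulfide isomerases. Proteins that fail to fold are recognised, moved back to the cytosol and degraded by the proteasome, a process called ER-associated degradation. When unfolded proteins gather, the sensors IRE1, PERK and ATF6 start the unfolded protein response: IRE1 splices the XBP1 messenger into the form that encodes an active transcription factor, ATF6 is cut to release one, and PERK phosphorylates eIF2α, which slows translation and raises ATF4. Counts per gene do not separate the spliced from the unspliced XBP1 messenger and do not see the cutting of ATF6 protein. They do not see the phosphorylation of eIF2α by PERK either.

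The promoters of 6 of the 10 genes hold a spelled-out ER stress element and are shown because these elements are the textbook binding sites of ATF6 and XBP1, whose own transcripts are in the set. The ER stress response element was searched as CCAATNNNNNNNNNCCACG and its second form as ATTGGNCCACG, on both strands, in RefSeq windows from 250 bases before to 50 bases after each annotated start. All 10 genes had at least 1 window, 15 windows in all. The sequences below give the 250 bases before the start, 5′ to 3′ in the direction of transcription, in assembly GRCh38.p14, with the matched letters in capitals.
XBP1 (chr22:28800570-28800819, minus strand): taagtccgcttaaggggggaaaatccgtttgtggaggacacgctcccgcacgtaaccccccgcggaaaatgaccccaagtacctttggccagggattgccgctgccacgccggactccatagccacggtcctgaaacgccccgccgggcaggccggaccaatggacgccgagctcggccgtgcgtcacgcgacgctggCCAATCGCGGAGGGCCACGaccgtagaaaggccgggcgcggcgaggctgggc
CALR (chr19:12938359-12938608, plus strand): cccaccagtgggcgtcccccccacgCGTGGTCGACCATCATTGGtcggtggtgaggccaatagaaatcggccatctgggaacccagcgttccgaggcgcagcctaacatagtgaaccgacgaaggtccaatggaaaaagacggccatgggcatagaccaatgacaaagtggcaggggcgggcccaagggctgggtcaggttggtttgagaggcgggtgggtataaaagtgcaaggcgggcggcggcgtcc
CANX (chr5:179698679-179698928, plus strand): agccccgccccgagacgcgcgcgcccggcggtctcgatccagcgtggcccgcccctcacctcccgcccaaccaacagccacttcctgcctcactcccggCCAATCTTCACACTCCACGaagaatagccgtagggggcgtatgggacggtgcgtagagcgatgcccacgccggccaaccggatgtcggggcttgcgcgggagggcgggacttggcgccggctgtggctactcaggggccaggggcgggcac
HERPUD1 (chr16:56931892-56932141, plus strand): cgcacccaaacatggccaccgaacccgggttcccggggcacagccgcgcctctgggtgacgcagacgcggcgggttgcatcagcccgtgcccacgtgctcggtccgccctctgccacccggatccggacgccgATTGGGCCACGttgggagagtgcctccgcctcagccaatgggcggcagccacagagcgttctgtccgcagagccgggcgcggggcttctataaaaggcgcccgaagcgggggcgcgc
SDF2L1 (chr22:21642052-21642301, plus strand): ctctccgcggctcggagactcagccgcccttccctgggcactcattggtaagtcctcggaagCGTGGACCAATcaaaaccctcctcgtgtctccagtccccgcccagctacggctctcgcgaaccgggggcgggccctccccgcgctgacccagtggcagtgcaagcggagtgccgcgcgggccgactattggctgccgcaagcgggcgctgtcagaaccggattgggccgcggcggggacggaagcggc
HYOU1 (chr11:119057206-119057455, minus strand): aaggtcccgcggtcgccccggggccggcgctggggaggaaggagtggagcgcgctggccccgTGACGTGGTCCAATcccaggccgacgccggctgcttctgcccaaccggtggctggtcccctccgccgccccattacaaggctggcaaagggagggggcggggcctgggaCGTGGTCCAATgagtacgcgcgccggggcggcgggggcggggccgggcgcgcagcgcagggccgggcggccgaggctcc
The first form matched in XBP1 at 52 to 34 bases upstream of the start, in CALR at 225 to 207 on the reverse strand, and in CANX at 151 to 133. CANX has other annotated starts, and the same match lies in 2 further of its windows, once across a start. The second form matched in HERPUD1 at 117 to 107 bases upstream, in SDF2L1 at 188 to 178 on the reverse strand, and in HYOU1 on the reverse strand at both 185 to 175 and 79 to 69. Of 27305 genes with a window, 0.092% held the first form and 0.07% the second, against 3 of the 10 genes for each. The 10 genes were taken by name, so these shares are a description and not a test. The UPR element, known to bind XBP1 and searched as TGACGTGG, was present only in HYOU1 among the 10, at 188 to 181 bases upstream, where it overlaps the second form, and in 0.927% of all genes. The C/EBP-ATF element, searched as TGATGNAAT, matched in none of the 10 and in 1.22% of all genes. A match is a run of letters and not a measured binding site.

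Total counts ranged from 16225339 to 21546369 per library. Counts were scaled to counts per 1000000 (CPM) with factors from the trimmed mean of M values (TMM), and each comparison was tested with edgeR's quasi-likelihood F test, with Benjamini-Hochberg adjustment over all 17290 genes and a call at an adjusted p under 0.05. The 6 markers of a mesenchymal and bone line (VIM, FN1, SPARC, COL1A1, RUNX2 and CDH2) were present in every library; their summed level was 4610 to 5630 CPM with DMSO, 4650 to 5280 with TH10785, 5030 to 5120 with PNKP1i and 2560 to 3360 with both compounds, and 4 of the 6 fell with both compounds against DMSO. The 8 markers of other cell types summed to 6.62 to 11.3 CPM, with CD3E at 0 in all 12 libraries and PTPRC at most 0.366; their part in the results was not tested. With both compounds, fold changes of all genes moved with base composition: against DMSO the median log2 change was 0.65 over the 2369 genes whose longest transcript has under 40% GC, 0.03 over the genes between, and -0.36 over the 2603 genes above 60% GC. Each call below was therefore repeated with offsets that remove a smooth trend of counts with GC and length in each library, and the repeat is given where it ends the call of a named gene. In bulk RNA, fewer cells of a kind and less RNA per cell cannot be told apart.

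**Figure D1:**
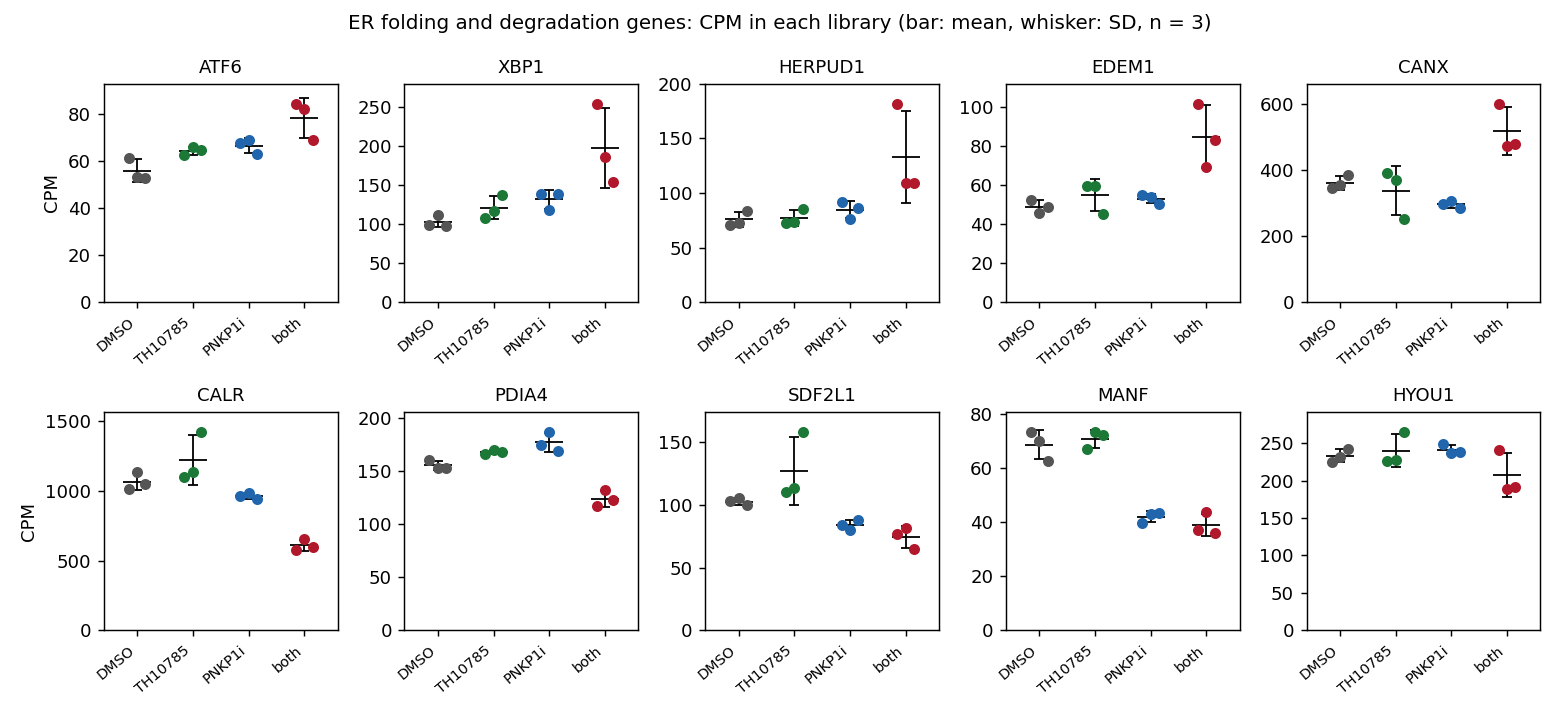
TMM-scaled CPM of each of the 10 genes (y axes, from 0) in the 4 groups (x axes), with 1 point per library, the mean as a bar and the SD as a whisker (n = 3). CALR lies between 573 and 653 CPM with both compounds and at 937 or above in the 9 other libraries, while CANX is highest with both compounds and MANF is low in both groups that received PNKP1i.

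TH10785 alone changed none of the 10 genes by edgeR's test, and none by DESeq2. The background was 0.561% of the tested genes, 0.515% higher and 0.0463% lower than DMSO. SDF2L1, a partner of ER HSP40 proteins in the BiP cycle, was the 1 gene with an unadjusted p under 0.05. Its log2 difference was 0.31 ± 0.14 (SE; 95% confidence interval 0.03 to 0.60, adjusted p = 0.304). In TH10785 library 3 several genes stood apart from the other two. SDF2L1 was at 110, 113 and 158 CPM in TH10785 libraries 1, 2 and 3, CALR at 1100, 1130 and 1420, and CANX at 391, 370 and 253. EDEM1 was lower and HERPUD1 and HYOU1 were higher in library 3 than in the other two. The median log2 difference over the 10 genes was 0.14, against -0.02 over all genes.

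PNKP1i alone changed 1 of the 10 genes, where 0.197% of all genes were called, 0.174% higher and 0.0231% lower. That gene was MANF, a small ER-resident protein that binds BiP, is secreted under stress and is known as a neurotrophic factor (ENSG00000145050, GRCh38 chromosome 3, 51385047 to 51389397, plus strand). The solvent controls held MANF at 73.6, 70.2 and 62.8 CPM and the TH10785 libraries at 67.3, 73.5 and 72.3, while PNKP1i libraries had 39.9, 43.2 and 43.5 and those given both compounds 37.2, 43.9 and 36.1. The 6 libraries that received PNKP1i thus lay below the 6 that did not, with no overlap. The fall against DMSO was -0.71 ± 0.11 on the log2 scale (1.63-fold lower, adjusted p = 0.0128) with PNKP1i alone and -0.82 ± 0.11 (1.76-fold lower, adjusted p = 6.61e-05) with both; both comparisons use the same DMSO libraries. Adding TH10785 to PNKP1i gave no call for MANF: the log2 difference was -0.11 (95% confidence interval -0.35 to 0.13, adjusted p = 0.457), and the interaction of the compounds was -0.15 (-0.50 to 0.19, adjusted p = 0.489). With GC and length offsets the fall with both compounds was -0.81. The call for PNKP1i alone ended when either of DMSO libraries 1 and 2 or any 1 of the PNKP1i libraries was left out, with adjusted p from 0.0515 to 0.168 and log2 changes from -0.73 to -0.65.

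The other 9 genes were not called with PNKP1i alone. XBP1 had a log2 difference of 0.35 (95% confidence interval 0.03 to 0.68, adjusted p = 0.419) and ATF6 0.25 (0.02 to 0.49, adjusted p = 0.424). SDF2L1 had a log2 difference of -0.29 (-0.57 to -0.00, adjusted p = 0.441), and its 3 PNKP1i libraries, at 79.8 to 87.9 CPM, did not overlap the DMSO libraries at 99.6 to 105. Besides MANF, the same groups also did not overlap for XBP1, ATF6, CALR, CANX and PDIA4. With TH10785 alone the libraries also did not overlap those of DMSO for ATF6, PDIA4 and SDF2L1. The share of all genes without overlap was not counted for any comparison, so lack of overlap is only a description here. XBP1 was called when only the DMSO and PNKP1i libraries entered the fit (0.37, adjusted p = 0.021). The median over the 10 genes was 0.08, against -0.02 over all genes.

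With both compounds 9 of the 10 genes were called against DMSO, 5 higher and 4 lower, where 41.0% of all genes were called, 21.3% higher and 19.7% lower. The genes that rose encode the 2 transcription factors, the 2 degradation factors and calnexin, and those that fell encode calreticulin, PDIA4, SDF2L1 and MANF; HYOU1 was not called. The median over the 10 genes, 0.16 against 0.04 over all genes, sums up genes that went opposite ways. With GC and length offsets 2 of the 10 were called higher and 2 lower, beside 2863 and 3023 of all 17290 genes. XBP1 (ENSG00000100219, chromosome 22, 28794555 to 28800597, minus strand) was at 99.3, 111 and 98.0 CPM in DMSO libraries 1 to 3, 108, 117 and 137 under TH10785, 138, 118 and 138 under PNKP1i, and 254, 185 and 154 under both. The libraries with both compounds lay above all 9 others, and the first of them was the highest. XBP1 rose 1.92-fold against DMSO (log2 0.94 ± 0.16, adjusted p = 0.000222), and rose also against TH10785 (0.71 ± 0.15, adjusted p = 0.00202) and against PNKP1i (0.59 ± 0.15, adjusted p = 0.00514). ATF6, a membrane-bound sensor and factor, was at 61.6, 53.4 and 52.9 CPM with DMSO and at 84.6, 82.3 and 68.9 with both, and rose 1.41-fold (log2 0.49 ± 0.11, adjusted p = 0.00276). Its 3 TH10785 libraries, at 62.7 to 65.9 CPM, lay between, and its 3 PNKP1i libraries, at 63.2 to 69.0, lay above DMSO and overlapped those of both compounds. XBP1 and ATF6 have 41.5% and 41.3% GC, and with GC and length offsets neither was called against DMSO (XBP1 0.45, adjusted p = 0.156; ATF6 0.11, adjusted p = 0.659). XBP1 then lost its calls against TH10785 (0.19, adjusted p = 0.561) and against PNKP1i (0.06, adjusted p = 0.878) too. ATF6 was called against TH10785 (0.29 ± 0.11, adjusted p = 0.0495), a call that held in 1 of 18 other settings, without library 3 of both compounds (0.37, adjusted p = 0.0307), and whose sign turned with offsets (-0.31, adjusted p = 0.18).

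HERPUD1, a membrane protein that organises the ubiquitin ligase complex for ER proteins, and EDEM1, a lectin-like mannosidase that hands misfolded glycoproteins to degradation, both rose. HERPUD1 (ENSG00000051108, chromosome 16, 56932048 to 56944863, plus strand) was at 71.1, 72.9 and 83.9 CPM in DMSO libraries 1 to 3, 72.9, 73.2 and 85.7 under TH10785, 91.7, 76.6 and 86.4 under PNKP1i, and 182, 109 and 109 under both. All libraries with both compounds exceeded the 9 others, and the first stood far above the other two. HERPUD1 rose 1.75-fold against DMSO (log2 0.81 ± 0.17, adjusted p = 0.00135). Without that first library the log2 change was 0.53 (adjusted p = 0.00456). EDEM1 (ENSG00000134109, chromosome 3, 5187646 to 5219957, plus strand) was at 52.6, 45.6 and 49.0 CPM in DMSO libraries 1 to 3, 59.7, 59.7 and 45.4 under TH10785, 54.9, 54.1 and 50.4 under PNKP1i, and 102, 69.5 and 83.4 under both. Again the libraries with both compounds were above all 9 others. EDEM1 rose 1.73-fold (log2 0.79 ± 0.14, adjusted p = 0.000491). Both calls remained with GC and length offsets, at 0.81 for HERPUD1 and 0.70 for EDEM1. Exons of an antisense gene cover 9.66% of the exonic bases of EDEM1, and the library kit named in the labels does not mark strand, so reads from the pair cannot be told apart there.

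Calnexin is anchored in the ER membrane and calreticulin is its soluble counterpart in the lumen; their transcripts went opposite ways. CALR (ENSG00000179218, chromosome 19, 12938578 to 12944489, plus strand) was at 1010, 1130 and 1050 CPM in DMSO libraries 1 to 3, 1100, 1130 and 1420 under TH10785, 962, 983 and 937 under PNKP1i, and 573, 653 and 597 under both. It fell to below every other library, 1.75-fold against DMSO (log2 -0.81 ± 0.13, adjusted p = 0.000145), and fell also against TH10785 (95% confidence interval -1.27 to -0.73, adjusted p = 5e-05). CANX (ENSG00000127022, chromosome 5, 179678628 to 179730925, plus strand) was at 345, 354 and 385 CPM in DMSO libraries 1 to 3, 391, 370 and 253 under TH10785, 298, 307 and 284 under PNKP1i, and 602, 473 and 479 under both. It rose to above every other library, 1.43-fold against DMSO (log2 0.52 ± 0.15, adjusted p = 0.0108). The number of CALR counts per CANX count, a ratio chosen after the values were seen, was 2.93, 3.20 and 2.73 in the controls, 2.82, 3.05 and 5.60 under TH10785, 3.23, 3.20 and 3.30 under PNKP1i, and 0.952, 1.38 and 1.25 under both. The 3 ratios with both compounds lay below the 9 others, which follows from CALR being lowest and CANX highest there and adds no support. With 53.9% GC against 41.6%, the 2 genes also differ in the direction of the composition trend: with offsets CALR was still called (-0.71), and CANX was not (0.12, adjusted p = 0.388). CANX was not called without the first library of both compounds (0.41, adjusted p = 0.0521). Opposite-strand exons cover 9.95% of the exonic bases of CALR, 2.41% of those of CANX and, among the genes that follow, 8.66% of those of HYOU1.

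PDIA4, a disulfide isomerase, was at 160, 153 and 153 CPM in DMSO libraries 1 to 3, 166, 170 and 168 under TH10785, 175, 187 and 169 under PNKP1i, and 117, 132 and 123 under both. The libraries with both compounds were the 3 lowest, while those of either compound alone all lay above DMSO without a call. PDIA4 fell 1.25-fold against DMSO (log2 -0.32 ± 0.10, adjusted p = 0.0158). SDF2L1 was at 103, 105 and 99.6 CPM with DMSO and 76.6, 81.7 and 64.4 with both, and fell 1.38-fold (log2 -0.46 ± 0.14, adjusted p = 0.0121). SDF2L1 is the member richest in GC, at 65.5%. With offsets neither was called (PDIA4 -0.19, adjusted p = 0.105; SDF2L1 -0.15, adjusted p = 0.258), and leaving out library 3 of both compounds ended both calls (PDIA4 -0.31, adjusted p = 0.0555; SDF2L1 -0.36, adjusted p = 0.07). The PDIA4 call also ended without the first of them (-0.27, adjusted p = 0.0621) and without the filter on low counts (-0.30, adjusted p = 0.122). HYOU1, a large HSP70-like protein that exchanges the nucleotide of BiP, was at 225, 232 and 242 CPM with DMSO, at 226 to 265 under TH10785, at 237 to 249 under PNKP1i, and at 241, 189 and 191 under both. The groups overlapped, since the first library of both compounds stood with the DMSO libraries. Its log2 difference was -0.17 (95% confidence interval -0.42 to 0.08, adjusted p = 0.257).

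**Figure D2:**
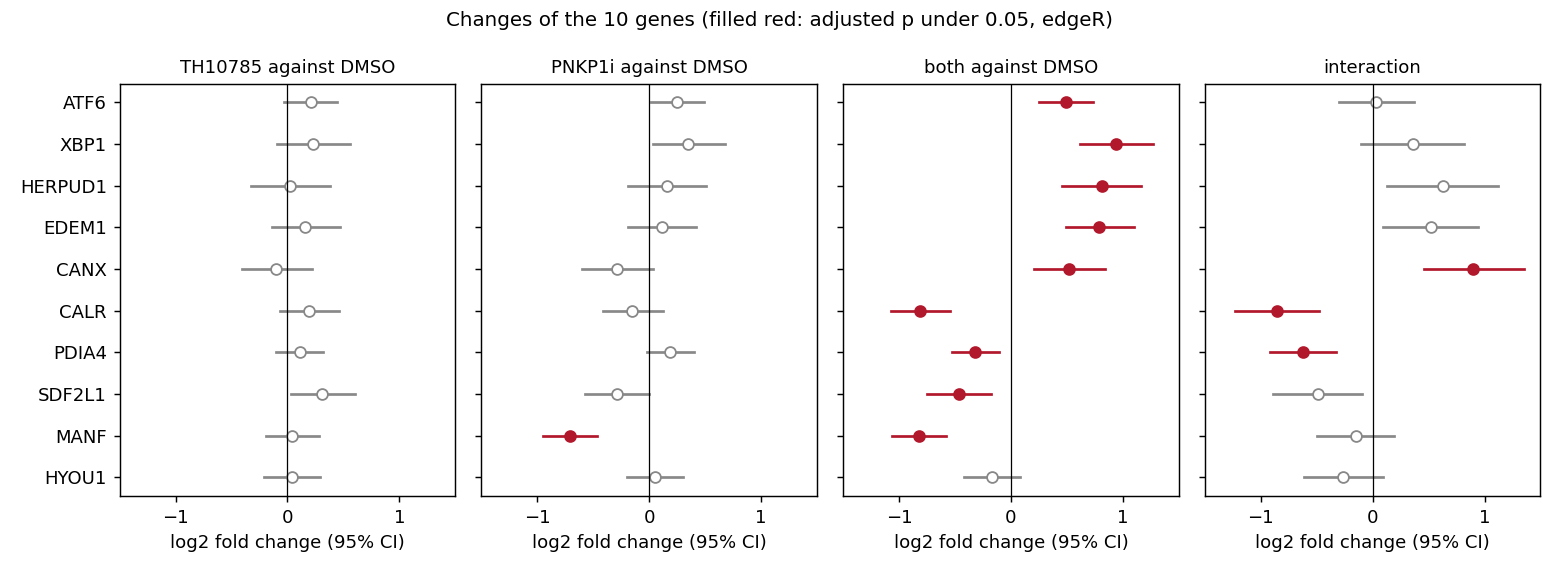
log2 fold change (x axis) of each of the 10 genes (y axis) with TH10785, PNKP1i and both compounds against DMSO and for the interaction, with 95% confidence intervals and red filled points where the adjusted p was under 0.05. With both compounds XBP1, ATF6, HERPUD1, EDEM1 and CANX lie to the right of 0 and MANF, CALR, PDIA4 and SDF2L1 to the left against DMSO, and only MANF is called with PNKP1i alone.

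**Figure D3:**
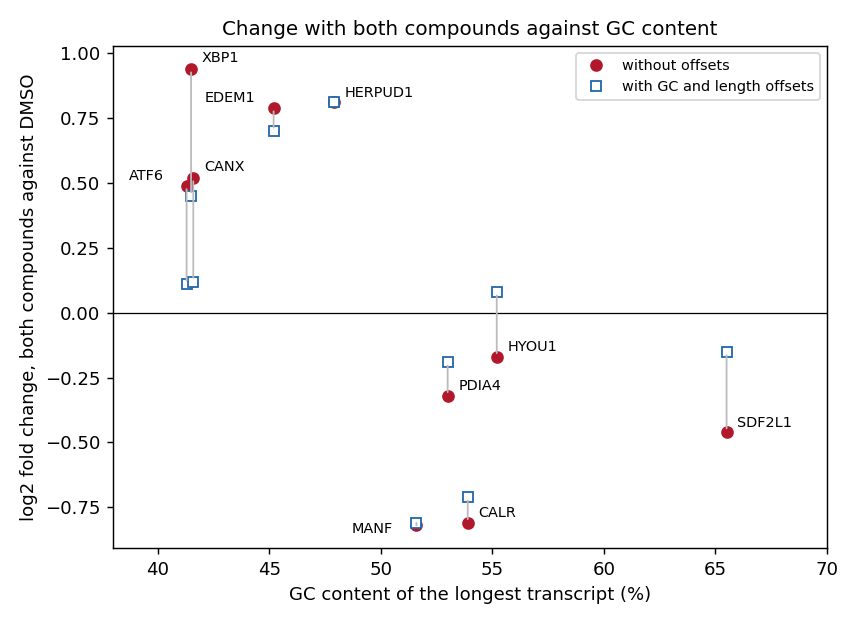
log2 fold change with both compounds against DMSO (y axis) by the GC content of the longest transcript in percent (x axis), 1 pair of marks for each of the 10 genes: circles without and squares with GC and length offsets. HERPUD1, MANF and CALR keep most of their change, while CANX moves from 0.52 to 0.12, ATF6 from 0.49 to 0.11 and SDF2L1 from -0.46 to -0.15.

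Against TH10785 the same 9 genes were called in the same directions, 5 higher and 4 lower, where 42.3% of all genes were called, 22.7% higher and 19.7% lower. MANF fell 1.82-fold, SDF2L1 1.71-fold and PDIA4 1.35-fold, and CANX rose 1.53-fold. With GC and length offsets the split was 2 higher, HERPUD1 and EDEM1, and 4 lower, beside 2610 higher and 3168 lower of all 17290 genes. The calls of XBP1, ATF6 and CANX (0.13, adjusted p = 0.333) then ended, and the fall of SDF2L1 went from -0.78 to -0.36. Against PNKP1i 6 genes were called, 4 higher and 2 lower, where 46.0% of all genes were called, 24.4% higher and 21.5% lower. CANX rose 1.75-fold, EDEM1 1.60-fold, HERPUD1 1.57-fold and XBP1 1.51-fold, while CALR fell 1.58-fold and PDIA4 1.42-fold. With offsets the split was 2 higher, again HERPUD1 and EDEM1, and 2 lower, beside 2729 higher and 3026 lower of all 17290 genes. CANX (0.26, adjusted p = 0.0569) and XBP1 (0.06, adjusted p = 0.878) were then not called. Without the first library of both compounds the log2 rise of HERPUD1 against PNKP1i was 0.37 and that of XBP1 0.38, and HYOU1 was called lower against TH10785 (-0.34, adjusted p = 0.0325) and against PNKP1i (-0.34, adjusted p = 0.0257). Median log2 differences over the 10 genes were 0.04 against TH10785 and 0.06 against PNKP1i, beside 0.02 and 0.01 over all genes.

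The interaction of the compounds asks whether the change with both differs from the sum of the 2 single changes on the log2 scale. It was called for 3 of the 10 genes, 1 positive and 2 negative, where 30.6% of all genes were called, 16.5% positive and 14.1% negative. For CANX it was 0.90 ± 0.21 (95% confidence interval 0.46 to 1.35, adjusted p = 0.00811): neither single compound gave a call, at -0.10 with TH10785 (0.09 without TH10785 library 3) and -0.29 with PNKP1i, and both together gave a rise. For CALR the interaction was -0.85 ± 0.18 (-1.23 to -0.48, adjusted p = 0.00602) and for PDIA4 -0.62 ± 0.14 (-0.92 to -0.33, adjusted p = 0.00703). With GC and length offsets CANX was not called (0.28, adjusted p = 0.189), CALR (-0.54, adjusted p = 0.0135) and PDIA4 (-0.39, adjusted p = 0.0347) were, and ATF6 was called negative (-0.76, adjusted p = 0.04) where the value without offsets was 0.03. Of all 17290 genes, 1312 were called positive and 1952 negative with offsets. HERPUD1 (0.63, 0.13 to 1.12, adjusted p = 0.0531), EDEM1 (0.52, 0.09 to 0.94, adjusted p = 0.0614) and SDF2L1 (-0.49, -0.89 to -0.09, adjusted p = 0.0611) lay just outside the threshold. All 3 were called without the second library of both compounds, whereas without the first HERPUD1 was at 0.33 (adjusted p = 0.151) and EDEM1 at 0.36 (adjusted p = 0.175). With offsets EDEM1 was at 0.17 (adjusted p = 0.48), SDF2L1 at -0.01 (adjusted p = 0.965) and HERPUD1 at 0.65 (adjusted p = 0.0812). The median was -0.06 over the 10 genes and -0.00 over all genes.

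Per kilobase of the longest transcript, the levels with DMSO ran from CALR at 559 ± 33 CPM per kb (SD, n = 3) through SDF2L1 at 118 ± 3.0 and CANX at 84.8 ± 4.9 to PDIA4 at 53.5 ± 1.3, HYOU1 at 51.4 ± 1.9, XBP1 at 47.2 ± 3.2, MANF at 45.6 ± 3.7, HERPUD1 at 25.8 ± 2.4, EDEM1 at 7.99 ± 0.57 and ATF6 at 7.46 ± 0.65. The neighbours PDIA4 and HYOU1, HYOU1 and XBP1, XBP1 and MANF, and EDEM1 and ATF6 differed by less than the sum of their SDs. With both compounds CALR was still first at 319 ± 21, followed by CANX at 122 ± 17, XBP1 at 90.9 ± 24 and SDF2L1 at 85.8 ± 10. CANX and XBP1 and, in turn, XBP1 and SDF2L1 again differed by less than that. HYOU1 at 45.6 ± 6.5, HERPUD1 at 45.2 ± 14 and PDIA4 at 42.8 ± 2.7 overlapped, and MANF at 25.9 ± 2.8, EDEM1 at 13.8 ± 2.7 and ATF6 at 10.5 ± 1.1 closed the order, the last pair within the sum of their SDs.

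From 7 lists of other ER genes, 106 of 107 genes were tested. With both compounds against DMSO 47 rose and 9 fell, with a median log2 change of 0.32 (29 rose and 11 fell with GC and length offsets). The counts of this and the following lists stand beside 21.3% higher and 19.7% lower over all genes tested, or 2863 and 3023 of 17290 genes with offsets. All 12 tested genes of the PERK and ATF4 arm rose, with a median of 1.54; with offsets 11 rose, with a median of 1.58. Among them the asparagine synthetase ASNS rose by 2.56 ± 0.21 on the log2 scale, the glutathione-degrading CHAC1 by 1.84 ± 0.16, the mTORC1 inhibitor DDIT4 by 1.54 ± 0.12 and the ATF4 partner CEBPG by 1.54 ± 0.13. The death-linked factor CHOP, encoded by DDIT3 and named for its role after values were seen, rose by 2.34 (adjusted p = 1.22e-05). Counts do not show whether PERK was active, and what raised these genes was not tested. This arm also held the 4 list genes called with PNKP1i alone: ASNS at 1.49 ± 0.21, CHAC1 at 1.24 ± 0.16, DDIT4 at 0.88 ± 0.11 and the stress regulator NUPR1 at 0.88 ± 0.13 (adjusted p from 0.00241 to 0.00809). Over all genes tested, PNKP1i alone gave calls for 0.174% higher and 0.0231% lower. The list was chosen with earlier results of these data known. With TH10785 alone none of the 106 genes was called, where 0.561% of all genes were called. This holds for edgeR's fit of all 12 libraries with the low-count filter and without offsets. The PERK and ATF4 arm had a median log2 change of 0.48 with TH10785 and 0.61 with PNKP1i, against -0.02 over all genes in each. When offsets were used with TH10785, 2 of the arm's 12 genes and 4 of the 106 were called higher. Beside these stood 209 higher and 76 lower of all 17290 genes. Without offsets, 21 of the 106 had an unadjusted p under 0.05 with TH10785, and DESeq2 called 5. The shares over all genes at that unadjusted p and by DESeq2 were not counted, so these numbers have no background beside them.

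In the list of sensors and proteases, 3 of 11 tested genes rose and 2 fell (median -0.06), shares near those over all genes. ERN1, which encodes IRE1, rose by 0.62 ± 0.17 (adjusted p = 0.00889), without a call when the first library of both compounds was left out (0.38, adjusted p = 0.0556). CREB3L1, an ATF6-like factor of bone and matrix secretion, fell by 1.19 on the log2 scale (SE 0.20, adjusted p = 0.000292), and NFYC, a subunit of the CCAAT-binding factor that joins ATF6 on the ER stress element, fell by 0.39 (SE 0.12, adjusted p = 0.014). All 3 remained called with offsets when all libraries were used. The call of NFYC ended without DMSO library 3 (-0.34, adjusted p = 0.0598) or library 3 of both compounds (-0.36, adjusted p = 0.0552).

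Among the other chaperones and cochaperones 3 of 14 rose and 1 fell (median 0.21). CNPY2 rose by 0.65 ± 0.20 and DNAJB9, a cochaperone of BiP, by 1.19 ± 0.33 at a low level, from 4.75 ± 0.96 to 10.9 ± 1.9 CPM; with offsets DNAJB9 was not called (0.65, adjusted p = 0.0556). CRELD2, known to be secreted under ER stress as MANF is, fell by 0.45 on the log2 scale (SE 0.12, adjusted p = 0.00604; -0.29 with offsets, adjusted p = 0.0172). The call of CNPY2 ended without DMSO library 3 (0.55, adjusted p = 0.0738) or library 3 of both compounds (0.62, adjusted p = 0.0518). The chief chaperones of the lumen, named for their role after values were seen, were not called: HSPA5, which encodes BiP, differed by 0.25 (adjusted p = 0.195) and HSP90B1, which encodes GRP94, by 0.31 (adjusted p = 0.207). For HSP90B1 the sign turned with offsets (-0.17, adjusted p = 0.294). In the disulfide list 6 of 16 rose and 0 fell in edgeR's test (median 0.22; with offsets 4 rose and 3 fell). DNAJC10, a reductase of the lumen, rose by 1.59 ± 0.28 and the oxidase ERO1B by 1.71 ± 0.35, both called also with offsets at 0.96 and 1.06, and the oxidase ERO1A by 0.75 ± 0.14, which was not (0.19, adjusted p = 0.119). P4HB, which encodes the main disulfide isomerase and was likewise chosen for its role, differed by -0.06 (adjusted p = 0.769; 0.22 and adjusted p = 0.112 with offsets).

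Of the 10 genes of N-glycan trimming and glucose recycling 2 rose and 2 fell (median -0.08), also near the shares over all genes. UGGT2, a glucosyltransferase that tags unfolded glycoproteins, rose by 1.03 ± 0.23 and the cargo receptor LMAN1 by 0.65 ± 0.19, while the mannosidase MAN1B1 fell by 0.36 (SE 0.13). With offsets UGGT2 (0.41, adjusted p = 0.063), LMAN1 (0.13, adjusted p = 0.326) and MAN1B1 (-0.04, adjusted p = 0.763) were not called. LMAN1 was not called without DMSO library 1 (0.58, adjusted p = 0.0526), nor MAN1B1 without any 1 of DMSO libraries 2 and 3, PNKP1i library 1 and the 3 libraries of both compounds (-0.37 to -0.26, adjusted p from 0.0615 to 0.178). Of the 25 tested genes of ER-associated degradation 9 rose and 4 fell (median 0.17; with offsets 6 and 3). NGLY1, which strips N-glycans from retrotranslocated proteins, rose by 1.08 ± 0.15, and the lectin ERLEC1 by 0.78 ± 0.17. VCP, the ATPase that pulls proteins from the ER membrane, fell by 0.66 (SE 0.13, adjusted p = 0.000871), from 873 ± 60 to 553 ± 36 CPM. With offsets NGLY1 (0.39, adjusted p = 0.0181) and VCP (-0.50) were still called and ERLEC1 was not (0.27, adjusted p = 0.103). In the list of the translocon and signal peptide processing 12 of 18 genes rose and 0 fell in edgeR's test (median 0.58), a split of 5 and 1 with offsets (median 0.18). SPCS3, a signal peptidase subunit, rose by 1.05 ± 0.14 and the translocon-associated SSR3 by 1.01 ± 0.13; with offsets they were at 0.38 and 0.50, still called. The translocon subunit SEC61G rose by 0.72 ± 0.12 and was at -0.10 with offsets (adjusted p = 0.718).

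**Figure D4:**
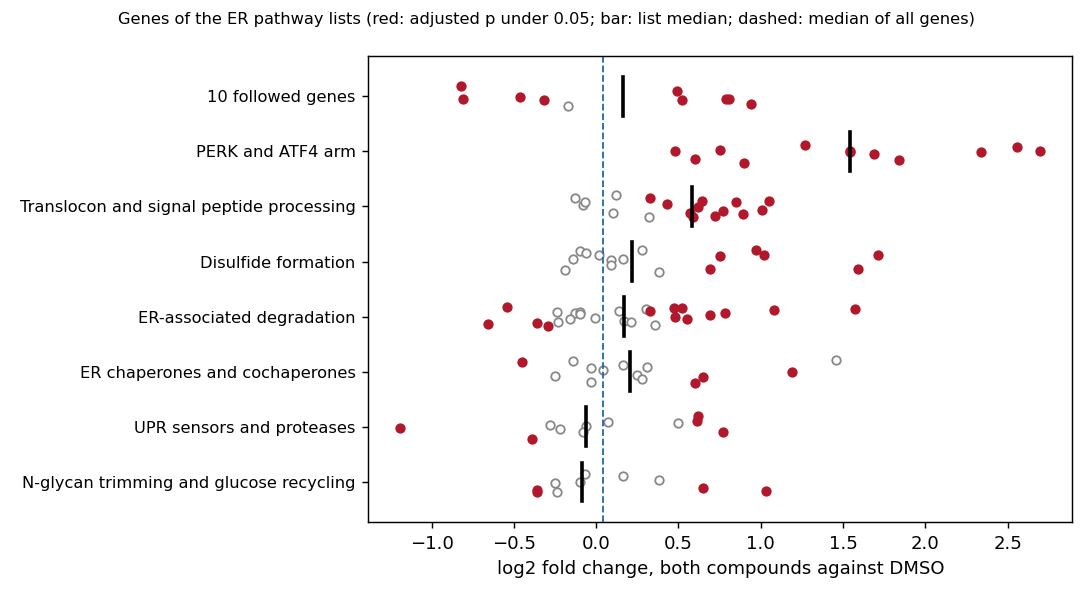
log2 fold change with both compounds against DMSO (x axis) of the 10 genes and of the tested genes of 7 ER lists (y axis), 1 point per gene, red where the adjusted p was under 0.05; the black bar is the list's median and the dashed line the median of all genes, 0.04. All 12 genes of the PERK and ATF4 arm lie to the right, while the 10 genes split into 5 higher, 4 lower and 1 not called.

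For each of the 10 genes the 3 tested genes with the highest Pearson r of log2 CPM over the 12 libraries were listed, as a description over libraries that share their 4 groups and the composition trend. XBP1 was nearest to UPP1 (r = 0.985), TRIB3 (0.98) and SERP1 (0.978). HERPUD1 was nearest to TRIM25 (0.984), MYC (0.977) and NMNAT2 (0.975), and EDEM1 to SLC38A1 (0.979), AVL9 (0.976) and HCG18 (0.976). ATF6 was nearest to ANXA7 (0.958), ARMC10 (0.948) and CCNB1IP1 (0.942). No named neighbour was shared between any of the 10 genes. CANX was nearest to PTP4A2 (0.992), C16orf72 (0.987) and GNG12 (0.985), and CALR to EPHB2 (0.979), SLC25A1 (0.976) and OGDH (0.975). PDIA4 was nearest to CTDSPL (0.978), SLC25A48 (0.957) and HADH (0.951), SDF2L1 to CDKN1A (0.956), SFXN3 (0.929) and SEMA7A (0.924), and HYOU1 to VPS37B (0.932), ATG13 (0.928) and C2CD2L (0.92). For MANF, LOC100129931 (0.918) and EFR3B (0.905) were among the nearest.

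The 6 genes whose promoters hold a first or second form of the ER stress element did not move as one. With both compounds against DMSO XBP1, HERPUD1 and CANX rose, CALR and SDF2L1 fell, and HYOU1 was not called. Of the 4 genes with no match in their windows, ATF6 and EDEM1 rose and MANF and PDIA4 fell. With GC and length offsets the only calls among the 10 genes were HERPUD1 and EDEM1 higher, and CALR and MANF lower. Whether the elements have a part in these changes was not tested.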

How the data were processed

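RNA from 12 libraries of U2OS cells, 3 in each of 4 groups, was sequenced as 150-base read pairs. The authors deposited raw counts per gene; per the submitters' processing notes the tools were HISAT2 2.0.5, HTSeq 0.6.1 and DESeq2 1.30.1 with GRCh38. The strand setting and annotation of the counting are not given in the sources used here. From these counts edgeR 4.0.16 in R 4.3.3 (filterByExpr, TMM, robust quasi-likelihood F test, 1 mean per group over all 12 libraries) gave log2 fold changes, SEs (the change divided by the square root of F) and 95% intervals from the t distribution. The biological coefficient of variation was 15.4%. Alternatives were other scaling, DESeq2 1.42.0, no filter, a replicate block, GC and length offsets (splines of 5 df; GC and length from the longest GENCODE 29 transcript, known for 17282 genes), only the groups compared, and each library left out. The pipeline was tested on simulated data. Named genes are the 10, from each list the 3 with the smallest p with both compounds against DMSO, and list genes called with 1 compound; exceptions are stated, and 1 gene of like pattern is not reported here. The members and lists were chosen with earlier results of these data known. TH10785 is spelled TH10587 in the series record, and the spelling of the samples is used.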

Additional observations from a re-analysis of the deposited data

Results flagged for a closer look

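For 3 of the 10 genes the effect of one compound differed with and without the other, by the interaction term of edgeR's quasi-likelihood fit, a share near the 30.6% called over all genes. The interaction on the log2 scale was -0.85 for CALR, 0.90 for CANX and -0.62 for PDIA4. With GC and length offsets CANX was not called (0.28, adjusted p = 0.189). CALR was at 573 to 653 CPM with both compounds and at 937 to 1420 in the other 9 libraries, and CANX at 473 to 602 against 253 to 391. PDIA4 was at 117 to 132 CPM with both compounds and at 153 to 187 in the others. In groups of 3 libraries no single library was tested for standing apart.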

How the results depend on the processing

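Each value was recomputed under up to 18 other settings. Of 1646 such values for single genes, 1547 kept their direction and side of the threshold, 61 lost the call, 13 gained one and 25 turned sign. The number of the 10 genes called with both compounds against DMSO went from 9 to 4 with GC and length offsets. With PNKP1i alone it went from 1 to 2 with only the groups compared, and from 0 to 1 over the fits with 1 library left out; for the interaction that range was 3 to 6, the 6 without the second library of both compounds. Same-numbered libraries showed no shared deviation (correlations -0.255 to 0.125), which cannot establish that they were not handled as pairs. With the replicate block 9, 8 and 6 genes were called with both compounds against DMSO, TH10785 and PNKP1i. List genes called went from 0 to 5 (DESeq2, no filter), 4 (offsets) and up to 2 (1 library left out) with TH10785, from 4 to 7 (no filter), 28 (only the groups compared) and 2 to 14 (1 library left out: DMSO 3 and TH10785 3) with PNKP1i, and from 47 to 27 (offsets) for the interaction. Over all 17290 genes, the offsets gave calls of 2863 higher and 3023 lower with both compounds against DMSO. They gave 209 higher and 76 lower with TH10785, and 1312 positive and 1952 negative for the interaction. Calls over all genes under the other settings were not counted, so the member and list counts there have no background beside them. No value that turned sign had been called except ATF6 against TH10785 and SEC61G.

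With GC and length offsets the sign turned for the interactions of XBP1 (-0.20), ATF6 (-0.76) and MANF (0.07); for ATF6 with both against TH10785 (-0.31) and against PNKP1i (-0.34); for MANF with TH10785 (-0.06) and with both against PNKP1i (0.01); for SDF2L1 (0.20) and HYOU1 (0.03) with both against PNKP1i; and with both against DMSO for HYOU1 (0.08), SEC61G (-0.10), HSP90B1 (-0.17) and P4HB (0.22). With 1 library left out, values that crossed 0 ranged from -0.04 to 0.11 for the interaction of ATF6 (below 0 without DMSO 1, TH10785 1, PNKP1i 3, both 1 or both 2); with TH10785 alone from -0.04 to 0.10 for HERPUD1 (below 0 without DMSO 1, DMSO 2 or TH10785 3), from -0.02 to 0.11 for MANF (below 0 without DMSO 3), from -0.19 to 0.09 for CANX and from -0.03 to 0.11 for HYOU1 (both turned without TH10785 3); and from -0.12 to 0.01 for P4HB with both against DMSO (above 0 without both 3). Why a setting changed a value was not tested. Total counts, from 16225339 to 21546369, and 3 libraries per group limit the precision.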
